A study of Mus musculus with 12 samples.

Results

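Trim30d, Ifi213 and Gm1966 are 3 mouse genes that were taken from 10702 genes with placed counts and were chosen by their counts in WT T cells after allogeneic stimulation, which were 0 or close to it. Every comparison of the 3 genes with these WT allogeneic libraries is therefore given below as a description with no test. Bulk RNA-Seq was done on spleen T cells in 12 libraries, 3 for each of 4 groups, with 3132702 to 4631908 counts per library. WT T cells and PERK-cKO T cells (labelled PERK-KO) were stimulated either with allogeneic APCs, antigen-presenting cells from another mouse strain, or with antibodies to CD3 and CD28, called polyclonal stimulation. The purpose of the study was to learn how PERK, the kinase encoded by Eif2ak3 that senses unfolded protein in the endoplasmic reticulum, acts in T cells under these stimuli. In PERK-cKO mice, which were on the B6 background, floxed PERK was removed by Cre under the CD4 promoter, so that cells which had never expressed CD4-Cre kept the gene. The libraries were not stated to come from separate mice, and p-values therefore measure the spread between these libraries, which may be technical.

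Interferons bind receptors that signal through JAK kinases and STAT factors, and the factors so activated bind a promoter element called ISRE or one called GAS. Trim30d belongs to the TRIM30 group of the tripartite-motif family, which includes E3 ubiquitin ligases and antiviral factors and is induced by interferon. Ifi213 belongs to the PYHIN family, whose members, such as Aim2, carry a pyrin domain and in many cases a DNA-binding HIN domain. Gm1966 lies in a cluster of very large interferon-inducible GTPase genes related to Gvin1, and it is a pseudogene in GENCODE but protein coding in RefSeq.

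The promoters of the 3 genes are shown because all 3 held one ISRE core. The genes were chosen among interferon-inducible genes, so this shared core is not independent of the choice. They are RefSeq sequences on GRCm38.p6, on the minus strand, from 250 bases before to 50 bases after the gene start at chr7:104507800-104508099, chr1:173599223-173599522 and chr7:106644596-106644895. The Gm1966 window is at the start of the longer RefSeq gene and lies upstream of the shorter GENCODE gene whose exons were counted, not next to it. Capitals mark the ISRE core, GAAA, any 2 bases and GAAA, on either strand.
Trim30d: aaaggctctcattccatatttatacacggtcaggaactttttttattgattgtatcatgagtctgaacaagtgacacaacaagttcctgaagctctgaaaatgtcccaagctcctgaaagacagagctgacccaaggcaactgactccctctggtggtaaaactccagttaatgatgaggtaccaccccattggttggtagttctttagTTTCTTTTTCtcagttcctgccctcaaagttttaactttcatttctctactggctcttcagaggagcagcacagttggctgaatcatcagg
Ifi213: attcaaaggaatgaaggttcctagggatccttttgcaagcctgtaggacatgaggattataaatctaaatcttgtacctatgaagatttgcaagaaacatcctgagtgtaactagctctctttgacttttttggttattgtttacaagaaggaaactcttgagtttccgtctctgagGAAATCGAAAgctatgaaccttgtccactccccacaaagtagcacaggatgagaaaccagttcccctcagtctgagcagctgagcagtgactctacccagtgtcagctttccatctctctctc
Gm1966: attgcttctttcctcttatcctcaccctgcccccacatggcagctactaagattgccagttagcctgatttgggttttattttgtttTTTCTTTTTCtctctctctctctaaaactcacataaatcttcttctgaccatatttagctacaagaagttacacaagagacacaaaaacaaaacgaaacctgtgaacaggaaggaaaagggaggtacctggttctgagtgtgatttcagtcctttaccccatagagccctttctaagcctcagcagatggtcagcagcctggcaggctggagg
Counted from the gene start, the core began at position -41 in Trim30d, -73 in Ifi213 and -163 in Gm1966. It was in 3.44% of all 32851 RefSeq promoters of this length. Among promoters of the gene lists it was in 8 of 15 of the TRIM list, 9 of 13 of the PYHIN family, 11 of 13 of the GBP and IRG GTPases, 22 of 61 of other interferon-stimulated genes and 3 of 23 of the interferon ligands, receptors and signalling genes. The GAS core (TTC, any 3 bases and GAA) was in 8.3% of all promoters and in 0 of these 3. A match describes letters in the window and does not show binding.

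The symbols printed in the deposited table did not name these genes. Its positions are numbered for GENCODE M27, whereas the submitters' processing notes list the build mm10, and each entry was therefore laid on GRCm38 exons at its printed positions. Trim30d (ENSMUSG00000057596.13, chr7:104470014-104507849) took its counts from the entry listed as Gm4887, whose 1053 bp all lay in Trim30d exon sequence. This stretch was 0.4 to 1.4 kb from the gene's lowest position, which is its 3′ end. Ifi213 (ENSMUSG00000073491.11, chr1:173566283-173599274) took them from the entry listed as Ifi204, of which 185 of 3561 bp (5.2%) lay in Ifi213 exons, in stretches of 60 and 125 bp, and the other bases in its introns. Both stretches are exons of noncoding transcript models, the retained-intron Ifi213-203 and the processed transcript Ifi213-204, so the count does not measure the coding exons. Gm1966 (ENSMUSG00000073902.5, chr7:106596743-106604035) took them from the entry listed as Olfr2, of which 4720 of 6734 bp (70.1%) lay in its exons. The Ifi213 count is thus the least specific to exons. All 3 genes are on the minus strand, but counting did not use strand.

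Of the 50-base words in the Trim30d stretch, 0 of 1004 occurred in transcripts of other genes, and in Ifi213 0 of 11 and 0 of 76 did. In the longer Gm1966 stretch 901 of 4397 words (20.5%) also occurred in relatives such as Gvin1, Gm8989 and Gm8995. The Gm1966 values are therefore uncertain where reads could be shared with these copies. The bases of the Ifi213 and Gm1966 entries outside these stretches were not searched, so sharing of reads there is unknown. For Ifi213 they were most of the entry.

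Trim30d was at 0 counts in all 3 WT allogeneic libraries. The PERK-cKO allogeneic libraries held 624, 601 and 410 counts. The WT polyclonal libraries held 297, 264 and 282 counts, and the PERK-cKO polyclonal libraries held 243, 142 and 194. In CPM, which here scales placed counts by library sizes normalised with TMM, the level was 272 ± 25.5 in PERK-cKO allogeneic, 146 ± 12.2 in WT polyclonal and 97.4 ± 11.5 in PERK-cKO polyclonal libraries (SD, n = 3 each). These 4 groups did not overlap in CPM, and PERK-cKO allogeneic libraries were the highest. Against a floor of 3 counts per WT allogeneic library, the level was at least 158-fold higher with PERK-cKO allogeneic, at least 84.7-fold higher in WT polyclonal and at least 56.5-fold higher in PERK-cKO polyclonal libraries.

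Gm1966 was low but detected in the WT allogeneic libraries, at 18, 25 and 17 counts. The PERK-cKO allogeneic libraries held 2695, 2737 and 1986 counts. The WT polyclonal libraries held 490, 471 and 495 counts, and the PERK-cKO polyclonal libraries held 428, 332 and 379. The groups stood in the same order as for Trim30d and again did not overlap in CPM, with 11.5 ± 2.81 CPM in WT allogeneic, 1240 ± 100 in PERK-cKO allogeneic, 252 ± 13.2 in WT polyclonal and 194 ± 5.11 in PERK-cKO polyclonal libraries (SD, n = 3 each). The ratio of PERK-cKO to WT after allogeneic stimulation was 108 (95% exact binomial interval 84 to 142, counting error only). WT polyclonal libraries were 22 times the WT allogeneic ones (17 to 29).

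Ifi213 did not share this pattern. It was at 0, 2 and 1 counts in the WT allogeneic libraries, at 1, 0 and 0 in WT polyclonal and at 0, 1 and 0 in PERK-cKO polyclonal libraries. Only the PERK-cKO allogeneic libraries held more, with 102, 108 and 86 counts, or 49.8 ± 4.87 CPM (SD, n = 3). The other 3 groups overlapped each other, so Ifi213 was near 0 in 3 groups and present in 1, unlike Trim30d and Gm1966. The ratio of PERK-cKO to WT allogeneic libraries was 86.4 (29.3 to 422, counting error only).

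**Figure D1:**
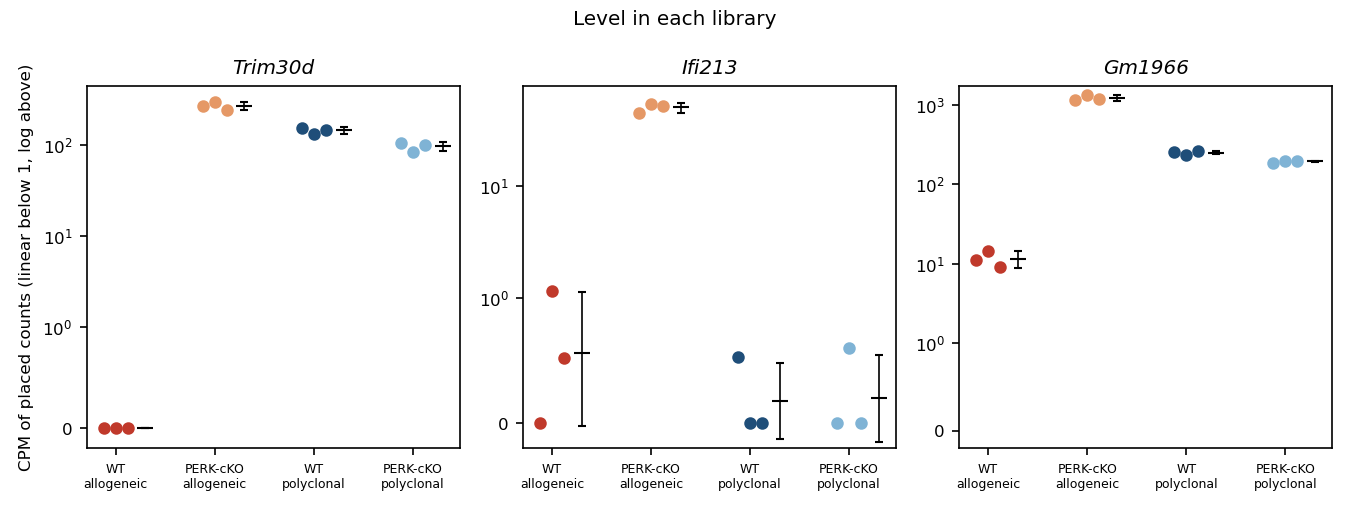
CPM of Trim30d, Ifi213 and Gm1966 (vertical axis, linear below 1 and logarithmic above) in each of the 12 libraries by group, with points for libraries and bars for mean ± SD of 3. Trim30d and Gm1966 were lowest in WT allogeneic libraries and present in the other 3 groups, whereas Ifi213 was above 1.16 CPM only in PERK-cKO allogeneic libraries.

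Other features of the libraries moved with these values. Summed over 4 genes of the Y chromosome (Uty, Kdm5d, Ddx3y and Eif2s3y), WT allogeneic libraries held 3335, 3726 and 4716 counts, whereas each of the other 9 libraries held 0. Genotype, stimulation and this difference cannot be told apart in any comparison with WT allogeneic libraries. Marker lists were summed as CPM of placed counts without TMM. T cell markers (4 of 14 placed) summed to 5419 to 5793 CPM in WT allogeneic and 5066 to 5754 in PERK-cKO allogeneic libraries, and to 3402 to 4086 and 4991 to 5220 CPM in WT and PERK-cKO polyclonal libraries. Thy1 made up most of this sum, and of 3 T cell markers tested after allogeneic stimulation Lck and Cd5 were lower in PERK-cKO, by -0.52 and -0.80 on the log2 scale (edgeR adjusted p = 8.59e-05 and 1.1e-06). Macrophage and monocyte markers (5 of 14 placed) summed to 1643 to 1761 CPM in PERK-cKO allogeneic libraries against 224 to 255, 100 to 113 and 111 to 136 CPM in WT allogeneic, WT polyclonal and PERK-cKO polyclonal libraries. Basophil and mast cell markers (4 of 6 placed) summed to 871 to 940 CPM there, against 44.4 to 52.3, 3.4 to 6.75 and 25.3 to 30.6 CPM in the same order. Dendritic cell markers (3 of 7 placed) summed to 46.5 to 61.2 CPM there against 1.69 to 7.45, 7.28 to 10.8 and 6.11 to 7.41, and the 1 of 10 B cell markers placed was at 135 to 168 CPM against 52.3 to 64.6, 3.4 to 5.4 and 4.32 to 10.7. These are the libraries in which Ifi213 was present and Trim30d and Gm1966 were highest. The part of such cells in the levels of the 3 genes was not tested. In bulk RNA, fewer cells of a type and less RNA per cell cannot be told apart. Eif2ak3 itself had 169, 167 and 173 counts in WT and 155, 140 and 121 in PERK-cKO allogeneic libraries, a log2 fold change of -0.49 (edgeR adjusted p = 0.00759), and -0.36 after polyclonal stimulation (adjusted p = 0.171).

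The contrast of genotypes after polyclonal stimulation was not used to choose the genes and could be tested. Both Trim30d and Gm1966 were lower in PERK-cKO than in WT polyclonal T cells. Trim30d fell by 0.58 on the log2 scale (SE 0.114, edgeR quasi-likelihood adjusted p = 0.00114), with all 3 PERK-cKO libraries below all 3 WT libraries in CPM. Gm1966 fell by 0.38 (SE 0.0887, edgeR adjusted p = 0.00383), also without overlap. This call was lost when counts were scaled by library size alone (adjusted p = 0.0581). Ifi213, with 0 or 1 count in each library, did not pass the filter on low counts. WT polyclonal library 1 stood apart from the other 2 (chi-square per gene 54.4 and 61.4, against 10.5 between those), and without it Trim30d changed by -0.56 and Gm1966 by -0.39 (edgeR adjusted p = 0.0073 and 0.0162). Of 3937 genes tested, 15.8% were lower and 16% higher in PERK-cKO polyclonal libraries. Among T cell markers Thy1 and Lck were higher in PERK-cKO, by 0.64 and 0.26, and Cd5 was at -0.58 (edgeR adjusted p = 1.35e-05, 0.0207 and 6.4e-05). Cd8b1, with 14, 17 and 4 counts in WT and 53, 31 and 28 in PERK-cKO libraries, was also higher.

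Within PERK-cKO T cells, Trim30d and Gm1966 were higher after allogeneic than after polyclonal stimulation. Trim30d rose by 1.49 on the log2 scale (SE 0.117, edgeR adjusted p = 6.68e-09) and Gm1966 by 2.69 (SE 0.0949, edgeR adjusted p = 1.18e-13). Ifi213 rose by 7.75 (SE 0.489, edgeR adjusted p = 2.98e-10), but it passed the filter only through its high group and so had to differ; its ratio was 291 (51.7 to 11514, counting error only). In this comparison 27.7% of 4159 genes were higher and 23.8% lower after allogeneic stimulation. The stimuli also differed in whether APCs were in the culture, and the 2 cannot be told apart.

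Other interferon-inducible genes were mostly higher in WT T cells after allogeneic than after polyclonal stimulation, the direction opposite to that of Trim30d and Gm1966. A gene can pass the filter on low counts through 1 group alone, which fixes its direction, and the list counts below are therefore of genes in which each group passed the filter by itself. In this comparison 24.5% of all 3985 genes tested were higher and 24.1% lower, and of 3295 genes in which both groups passed 841 were higher and 768 lower (median 0.01). Of 14 such interferon-stimulated genes 11 rose and 1 fell, with a median log2 fold change of 1.07. Oasl2, of the family of 2-5A synthetase-like antiviral genes, rose by 2.13 (edgeR adjusted p = 3.06e-06), and Ddx58, which encodes the RNA sensor RIG-I, rose by 1.09 (edgeR adjusted p = 2.33e-06). Oas3, a 2-5A synthetase, fell by 0.50 (edgeR adjusted p = 0.000173).

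Of the PYHIN family, to which Ifi213 belongs, 4 of 4 genes rose in WT (median 2.79) and 4 of 5 in PERK-cKO T cells (median 1.99). In the PERK-cKO comparison 773 of 3346 genes in which both groups passed were higher and 906 lower (median -0.07). A further 3 PYHIN genes tested in each genotype had a polyclonal group that did not pass by itself. Ifi204, a nucleic acid sensor, had 171, 187 and 168 counts in WT allogeneic and 18, 14 and 12 in WT polyclonal libraries. Ifi207 had counts much like those of Ifi213, with 2, 0 and 7 in WT and 123, 77 and 58 in PERK-cKO allogeneic libraries. In polyclonal libraries Ifi207 had 0, 2 and 0 counts in WT and 7, 0 and 0 in PERK-cKO. The GBP and IRG GTPases, which act against intracellular pathogens, rose in 5 of 5 genes in WT (median 1.35) and in 5 of 5 in PERK-cKO (median 1.83).

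The TRIM list held neighbours of Trim30d together with interferon-related TRIM genes from elsewhere in the genome. In WT T cells 1 of 4 genes rose and 1 fell (median 0.06), and in PERK-cKO T cells 3 of 5 rose and 0 fell (median 0.43). Both WT calls, Trim26 and Trim25, lay outside the Trim30d window, while the neighbour Trim12c was at 0.02 (edgeR adjusted p = 0.959). Trim26, a ubiquitin ligase, rose in both genotypes, by 0.73 and 0.86. Trim25, which ubiquitinates RIG-I, fell by 0.27 in WT and rose by 0.23 in PERK-cKO (edgeR adjusted p = 0.0303 and 0.0365). Of ligands, receptors and signalling genes 2 of 7 rose and 2 fell in WT, and 4 of 7 rose and 1 fell in PERK-cKO T cells.

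On the list of very large GTPases Gm8995 was the 1 gene tested, and it rose by 1.67 in WT and by 1.61 in PERK-cKO T cells. It held 659, 695 and 858 counts in the WT allogeneic libraries, in which Gm1966 held 25 at most. Gm4759, which was not on the list but shares 50-base words with Gm1966, rose by 4.78 in WT and by 1.51 in PERK-cKO T cells (edgeR adjusted p = 7.17e-12 and 1.37e-06).

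**Figure D2:**
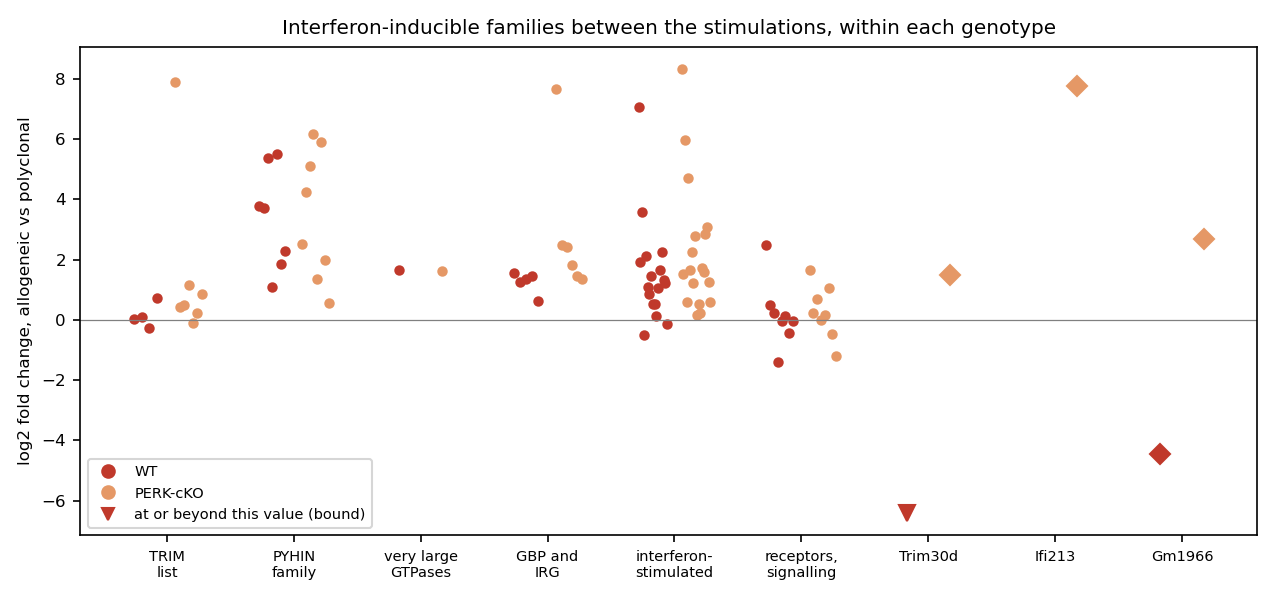
Log2 fold changes between allogeneic and polyclonal stimulation (vertical axis) in WT and PERK-cKO T cells for each tested gene of 6 lists (circles, those that passed the filter through 1 group included) and the 3 genes (diamonds), with a triangle for Trim30d in WT at the bound set by the floor of 3 counts and no WT value for Ifi213. The PYHIN, GBP and IRG genes lay above 0 in both genotypes, whereas Trim30d and Gm1966 lay below 0 in WT and above 0 in PERK-cKO.

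Between PERK-cKO and WT T cells after allogeneic stimulation, 18.5% of 4093 genes were higher and 14.5% lower, and of 3372 genes in which both groups passed the filter 486 were higher and 549 lower (median -0.06). Of 17 such interferon-stimulated genes 11 were higher and 0 lower (median 0.65), with Oas2 up by 2.52 and Oasl2 up by 2.44. The rest were not called, with Ifit2, Phf11b and Psmb8 below 0 and Parp14, Psmb9 and Slfn8 above. The PERK-cKO allogeneic libraries also held more macrophage and basophil markers, as given above, and the part of such cells in these changes was not tested. Of PYHIN genes 5 of 7 were higher and Aim2 was lower, at -0.99. Of GBP and IRG genes 2 of 5, of the TRIM list 2 of 4 and of ligands, receptors and signalling genes 3 of 6 were higher, and 0 of each were lower. The TRIM genes were Trim25 and Trim26. Trim6 and Trim30c, neighbours of Trim30d, passed only through PERK-cKO libraries, with 0, 0 and 1 counts in WT and 30, 31 and 29 in PERK-cKO libraries for Trim6, and 10, 2 and 3 against 38, 20 and 31 for Trim30c. Gm8995 was at -0.13 (edgeR adjusted p = 0.301).

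After polyclonal stimulation the shares over all genes were 16% higher and 15.8% lower. Of 3384 genes in which both groups passed the filter 581 were higher and 518 lower (median 0.02). Among such genes 2 of 14 interferon-stimulated genes were higher in PERK-cKO and 1 was lower. Of PYHIN genes 2 of 4 were higher, and of GBP and IRG genes 2 of 5 were lower. Of the TRIM list 0 of 4 were called, and of ligands, receptors and signalling genes 2 of 7 were higher and 1 lower. Gm8995 was at -0.06 (edgeR adjusted p = 0.72) and Gm4759 at 0.91 (edgeR adjusted p = 0.00789).

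The low WT allogeneic counts were not limited to the Trim30d entry itself. Within 300 kb of the gene 53 entries were laid and 15 held at least 20 counts. Without the 2 entries in Trim30d itself, 9 of 13, compared in raw counts, were lower in every WT allogeneic library than in every PERK-cKO allogeneic one and 7 were lower than in every WT polyclonal one, while 0 were higher in either. Over all 14571 entries these shares were 19.7% and 26.5% lower and 4.79% and 13.2% higher, with totals of 3132702 to 3938193 counts in WT allogeneic and 3282419 to 4572791 in PERK-cKO allogeneic libraries. The entry in the Trim30d intron had 0, 1 and 1 counts in WT allogeneic and 23, 18 and 20 in PERK-cKO allogeneic libraries.

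Other entries of this region had few or no WT allogeneic counts. The entry in the Trim12a gene had 0, 0 and 3 counts there and 202, 185 and 153 in PERK-cKO allogeneic libraries. Gm15133 had 0 in all 3 and 56, 50 and 65. One entry over no gene, at -177.9 to -173.5 kb from the lowest position of Trim30d, had 0 in all 3 and 404, 375 and 311. The entry in a Trim30a intron was reduced but present, with 50, 18 and 55 counts in WT allogeneic and 475, 480 and 449 in WT polyclonal libraries. The region was not silent throughout, since the entry over Trim12c and Trim34b had 780, 710 and 916 counts in WT allogeneic and 763, 680 and 930 in WT polyclonal libraries.

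Around Gm1966 the entries went in both directions. Of 15 entries with at least 20 counts outside the gene, 5 were lower and 4 higher in WT than in PERK-cKO allogeneic libraries. Against WT polyclonal libraries 4 were lower and 8 higher. Over all 14571 entries the shares were 19.7% lower and 4.79% higher in the first comparison and 26.5% and 13.2% in the second. The 4 lower than in WT polyclonal libraries were thus near the share over all entries. Among the low ones, an entry at -9.2 to -7.9 kb from Gm1966 had 0 in all 3 WT allogeneic libraries and 47, 39 and 30 in PERK-cKO allogeneic libraries. By contrast Gm4759, which lies within the same window, had 1086, 1366 and 1537 counts in WT and 321, 275 and 271 in PERK-cKO allogeneic libraries, a log2 fold change of -2.38 (edgeR adjusted p = 1.26e-14).

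Around Ifi213, 11 of 13 entries outside the gene were lower and 2 higher in WT than in PERK-cKO allogeneic libraries (19.7% and 4.79% over all entries). Against WT polyclonal libraries 0 were lower and 11 higher (26.5% and 13.2% over all entries). A second entry in the Ifi213 gene, outside its exons, had 1, 0 and 0 counts in WT and 261, 249 and 190 in PERK-cKO allogeneic libraries, and at most 4 in any polyclonal library. The 2 entries of the gene thus showed the same single group.

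**Figure D3:**
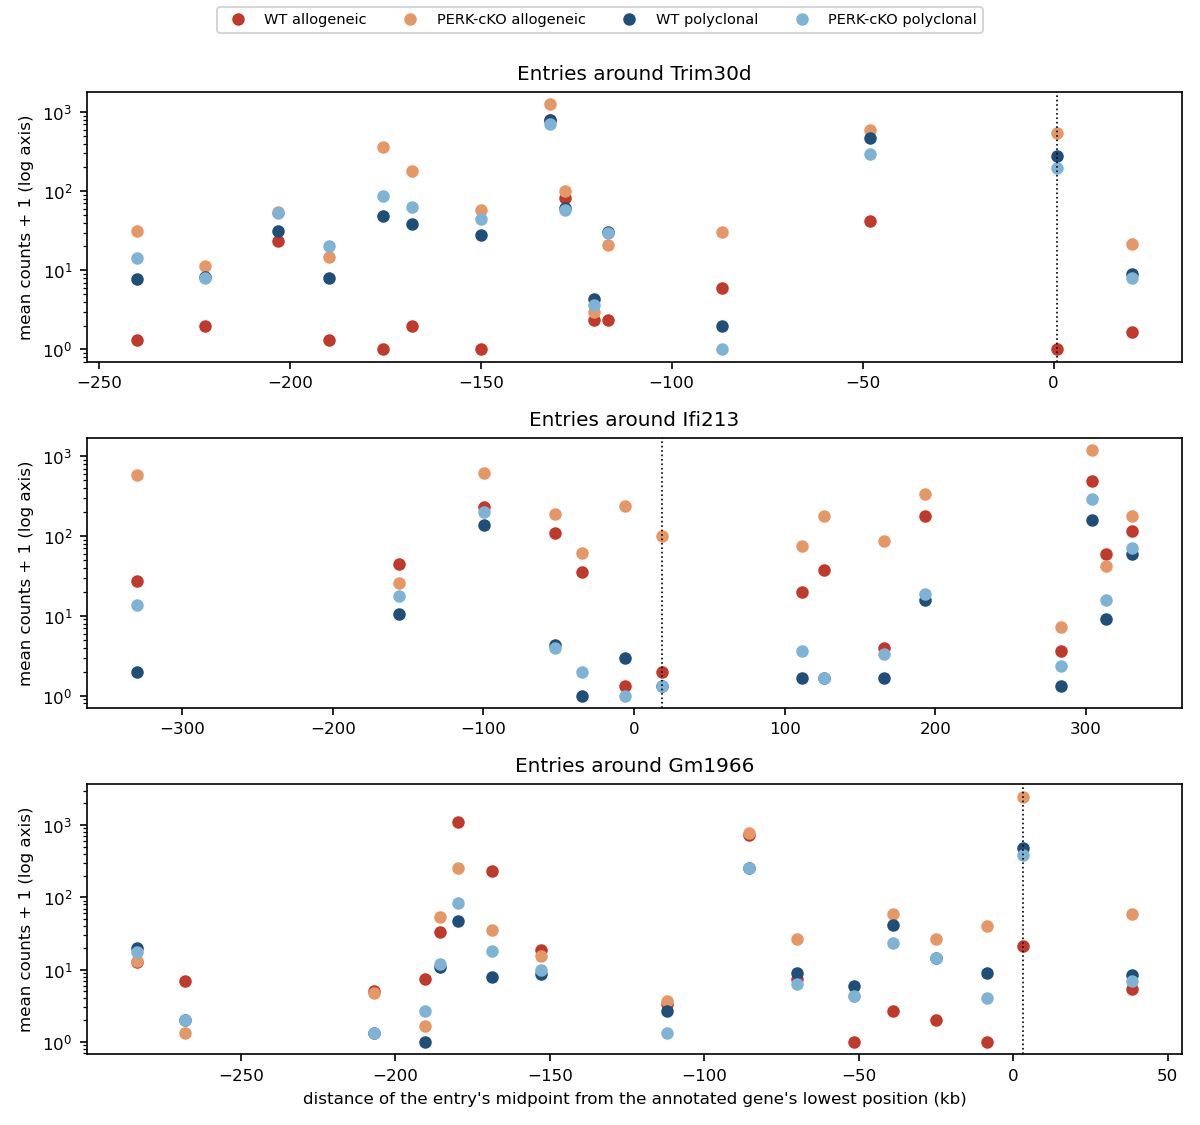
Mean counts plus 1 per group of 3 libraries (logarithmic vertical axis) for each entry with at least 20 counts, against the distance of its midpoint from the gene's lowest position in kb, with a dotted line at the entry counted for the gene. WT allogeneic points lay lowest over most of the Trim30d region, were mixed around Gm1966, and around Ifi213 lay mostly between the PERK-cKO allogeneic and the polyclonal points.

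Across the table this pattern was rare. Of 7507 entries with at least 10 counts in each of the other 9 libraries, 12 (0.16%) had at most 3 in every WT allogeneic library, of which 1 was the Trim30d entry that the choice of genes fixed. Of the other 11, 4 lay in the windows around Trim30d and Gm1966. Of placed genes, 5 of 3291 met this rule, namely Lad1, Gm12369, Gm15133, Trim30d and Loxl2. With at least 30 counts in each of the other 9 libraries, Trim30d was the 1 gene of 2542. Gm1966, with 17 to 25 counts, lay outside this limit. With the groups exchanged, 0 genes in PERK-cKO allogeneic, 4 in WT polyclonal and 0 in PERK-cKO polyclonal libraries were silent at the limit of 10 counts, and 0 in each at the limit of 30. Genes with at least 30 counts in every PERK-cKO allogeneic library and at most 3 elsewhere numbered 6 of 2937, and they were 4930430E12Rik, Cd300lb, Cnr1, Csf3r, Ifi213 and Tgfbi. With the groups exchanged, 5 of 2702 genes were present in WT allogeneic libraries alone, and 0 in either polyclonal group alone. This rule also admits Y-linked genes, and 4 of these summed to 3335 to 4716 counts in WT allogeneic libraries and 0 elsewhere. The 5 were not separated from them.

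The genes most like each of the 3 were named by Pearson's r of log2 CPM over 12 libraries among 4402 genes. These libraries fall in 4 groups, so r describes the order of the groups and has no p. For Trim30d they were Gm15133 (r = 0.981), Rnd1 (0.981) and Jcad (0.977). For Gm1966 they were Tnfsf14 (0.973), which encodes the cytokine LIGHT, H2-Q7 (0.971), a nonclassical MHC class I gene, and Zeb2 (0.963), a transcription factor. For Ifi213 they were Cd300lb (0.988), Csf3r (0.979), the G-CSF receptor gene of myeloid cells, and Gm2638 (0.978). Trim30d and Gm1966 correlated with each other at 0.954, Ifi213 with Gm1966 at 0.627 and Ifi213 with Trim30d at 0.372. All these r include the WT allogeneic libraries whose low values chose the 3 genes, so that choice helps to set them. The genes named for Trim30d and Gm1966 kept counts in the WT allogeneic libraries other than Gm15133, as with H2-Q7 at 2641, 2557 and 3322.

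**Figure D4:**
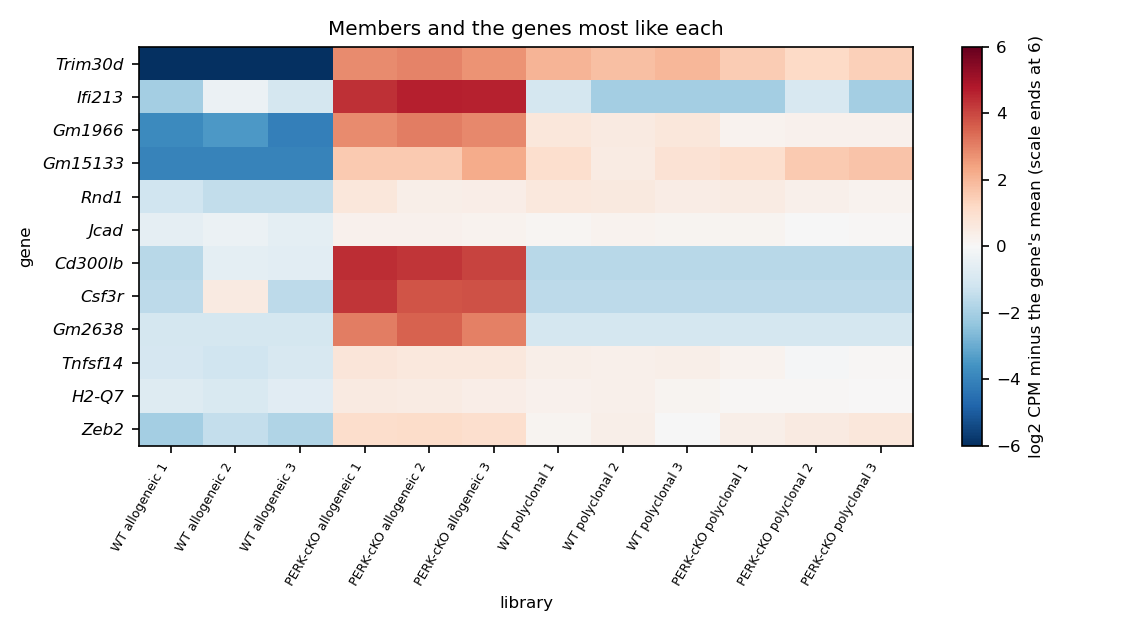
Log2 CPM minus the gene's mean over the 12 libraries (colour, scale ending at 6 either way) for the 3 genes and the 3 genes most like each, with libraries along the horizontal axis. Trim30d and Gm1966 were lowest in the WT allogeneic libraries, and Ifi213, Cd300lb, Csf3r and Gm2638 were high in the PERK-cKO allogeneic libraries alone.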

How the data were processed

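T cells were assayed by bulk RNA-Seq in 12 libraries, grouped by their labels. The authors deposited raw counts, which featureCounts 2.0.1 had made per gene symbol of GENCODE M27 exons with paired reads and no strand setting. The aligner is not given in the sources used here. Printed exon positions were laid on GRCm38 GENCODE M21 exons, and entries over exons of exactly 1 gene (at least 50 bp, small RNAs aside) were summed. Of 53762 entries, 13386 were placed on 10702 genes, with 50.4% of counts, and 34319 overlay no exon. Totals were 3132702 to 4631908 counts per library, and intervals and the floor of 3 counts cover counting error only.

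Each pair of groups was fitted with its 6 libraries in edgeR 4.0.16 (R 4.3.3; filterByExpr, TMM, quasi-likelihood test, Benjamini-Hochberg adjusted p under 0.05 over all genes tested). List counts were limited to genes in which all 3 libraries of each group reached the filter's cutoff. CPM used library sizes of placed counts normalised by TMM over the 12 libraries, except for marker sums, which used placed counts alone. On simulated counts with 200 changed genes, 91% were recovered in the PERK-cKO against WT allogeneic comparison (4093 genes) and 96% in the polyclonal one (3937 genes). Alternatives were DESeq2 1.42.0, other scalings and filters, a replicate block, all 12 libraries in 1 fit, each library left out, and other placements. Python 3.11.15 was used for placement and sequences. Genes were named as the 3 genes, Eif2ak3, genes within 300 kb, genes of the interferon lists, and the 3 most like each. The 3 genes and all lists were chosen with earlier results of these data known.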

Additional observations from a re-analysis of the deposited data

Results flagged for a closer look

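In 12 of 92 genes examined, the CPM of all PERK-cKO libraries lay on one side of all WT libraries after allogeneic stimulation and on the other side after polyclonal stimulation. The difference between the stimulations was not tested. Without the 3 chosen genes and those named for their likeness to them, 8 of 50 genes tested after both stimulations (16%) were of this kind, near the 13.8% over all 3715 genes so tested, and 5 of the 8 passed the edgeR threshold in both. Trim30d was higher in PERK-cKO allogeneic libraries and changed by -0.58 on the log2 scale in PERK-cKO polyclonal ones, and Gm1966 likewise changed by -0.38. Both were chosen by their WT allogeneic values, which fixed the first direction, and Tnfsf14 (1.73 after allogeneic and -0.27 after polyclonal stimulation) and H2-Q7 (1.24 and -0.19) were named for their likeness to Gm1966. Of the GBP and IRG GTPases, Gbp6 changed by 0.71 and -0.42, Gbp4 by 0.25 and -0.67 and Ifi47 by 0.35 and -0.39. The 2-5A synthetase gene Oas3 changed by 0.77 and -0.29, and Jak2, a kinase of the interferon gamma receptor, by 0.72 and -0.67. The opposite order was seen in Gm4759, in the Gm1966 region, at -2.38 and 0.91, in Lck, a T cell kinase gene, at -0.52 and 0.26, and in Psmb8, an immunoproteasome gene, at -0.23 and 0.14. The edgeR threshold was missed by Gbp4 after allogeneic, by H2-Q7 after polyclonal and by Ifi47 and Psmb8 after both stimulations.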

How the results depend on the processing

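The tested values of Trim30d and Gm1966 kept their direction under every alternative that gave a value, and kept their call except Gm1966 in the polyclonal comparison scaled by library size only, at -0.32 (edgeR adjusted p = 0.0581; -0.42 to -0.32 over the alternatives other than left-out libraries). Leaving out each library gave -0.68 to -0.50 for Trim30d and -0.43 to -0.37 for Gm1966 in the polyclonal comparison, and within PERK-cKO T cells 1.40 to 1.56 for Trim30d, 2.61 to 2.74 for Gm1966 and 7.19 to 9.67 for Ifi213, whose value says nothing of stability because the filter fixed its direction. Ifi213 gave no value under the placement that required 50% of an entry within exons or where every library had to hold 10 counts. Counts of called genes were 1352 (PERK-cKO against WT, allogeneic), 1250 (polyclonal), 2139 (stimulation, PERK-cKO) and 1937 (stimulation, WT). With entries at least 50% inside the exons, which left fewer genes to test, they were 400, 339, 612 and 567, and with entries as listed, which tested more, 2734, 2750, 4483 and 4346. Without 1 library they ranged from 1140 to 1288, 983 to 1160, 1980 to 2070 and 1714 to 1854. Libraries that shared a replicate number did not deviate together (correlations -0.0928 to 0.0931). The replicate block gave 1345, 1199, 2029 and 1961 calls and changed no call of Trim30d or Gm1966, with Trim30d at -0.59 and Gm1966 at -0.38 in the polyclonal comparison. At these depths a gene at 0 counts could still hold up to 3 counts per library.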
